A study of Mus musculus with 6 samples.

Results

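The 9 genes described here encode chemokine receptors, chemerin receptors and CXC chemokines of the macrophage: Cx3cr1, Ccr2, Ccr1, Cxcr4, Cmklr1, Ccrl2, Cxcl2, Cxcl10 and Cxcl16. They were read from every probe set annotated to exactly 1 of them, which gave 16 of the 45037 probe sets and 9 of the 18193 genes measured. They were selected on values of this comparison, that is, proposed with their low minus normal sodium differences on these same arrays known, so that those differences are a description and are given without a test. The cells were RAW264.7, a macrophage line of mouse origin from which RANKL, the osteoclast-inducing cytokine, can form osteoclast-like cells. A first group of 3 cultures was kept for 24 hours in low sodium medium at 120 mmol/l, brought to 290 mOsm/l with mannitol, and the other 3 cultures were kept in normal medium at 137 mmol/l. The treatment text names the cytokines M-CSF (10 ng/ml) and RANKL (30 ng/ml) without it being clear whether both media held them. The labels call the samples biological replicates, 4 per medium. The series holds 3 arrays per medium, and all 6 were analysed here. All 6 arrays are of 1 cell line in culture, with no bone surface named and no animal involved.

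Chemokines are small secreted proteins that bind receptors coupled to inhibitory G proteins and direct the movement of leukocytes. CC and CXC ligands are named after the spacing of their first cysteines, and receptors carry the name of the ligand class they bind. In the mouse, Ccr2 governs the exit of inflammatory monocytes from bone marrow, Cx3cr1 marks patrolling monocytes and resident macrophages, and Cxcr4 holds blood cells in the marrow through Cxcl12. Osteoclasts arise from these monocytes and macrophages, and chemokine receptors take part in bringing their precursors to bone.

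The 2 arrays of replicate 3, 1 per medium, stood apart from the other 4. Labelling controls, spiked bacterial transcripts, averaged a log2 intensity of 7.68 and 7.76 on the low- and normal-sodium arrays of replicate 3, and 9.12 to 9.52 on the other 4 arrays. Hybridisation controls lay between 12.02 and 12.29 on all 6. The labels name no batch, and whether the labelling difference has a part in any result was not tested. Values are therefore given for each array and each replicate number.

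Promoter sequence is shown for 4 of the genes because they form contrasting pairs in the values that follow. The ligand gene Cxcl2 was higher and the ligand gene Cxcl10 lower in low sodium at every replicate number, and the receptor gene Ccr2 was higher and the receptor gene Cx3cr1 lower. The sequences are the 250 bases before the annotated start site, 5′ to 3′, from RefSeq on GRCm38.p6, and capitals mark matches to the 3 motifs searched.
Cxcl2 (chr5:90903649-90903898, plus strand): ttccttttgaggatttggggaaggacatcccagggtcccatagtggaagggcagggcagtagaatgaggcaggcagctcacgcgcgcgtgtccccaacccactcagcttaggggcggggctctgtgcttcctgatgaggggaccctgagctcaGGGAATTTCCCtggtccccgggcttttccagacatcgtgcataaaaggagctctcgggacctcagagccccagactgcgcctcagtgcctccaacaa
Cxcl10 (chr5:92348890-92349139, minus strand): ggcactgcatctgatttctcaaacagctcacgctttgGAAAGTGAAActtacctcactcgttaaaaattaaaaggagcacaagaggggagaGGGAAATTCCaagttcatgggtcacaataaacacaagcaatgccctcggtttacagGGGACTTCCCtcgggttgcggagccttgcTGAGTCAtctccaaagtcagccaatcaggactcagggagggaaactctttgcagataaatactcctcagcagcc
Ccr2 (chr9:124101933-124102182, plus strand): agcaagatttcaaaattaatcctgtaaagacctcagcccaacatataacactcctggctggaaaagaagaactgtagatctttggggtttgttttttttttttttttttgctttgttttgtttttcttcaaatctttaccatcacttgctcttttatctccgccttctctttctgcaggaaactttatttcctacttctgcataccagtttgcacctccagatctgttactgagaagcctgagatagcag
Cx3cr1 (chr9:120068297-120068546, minus strand): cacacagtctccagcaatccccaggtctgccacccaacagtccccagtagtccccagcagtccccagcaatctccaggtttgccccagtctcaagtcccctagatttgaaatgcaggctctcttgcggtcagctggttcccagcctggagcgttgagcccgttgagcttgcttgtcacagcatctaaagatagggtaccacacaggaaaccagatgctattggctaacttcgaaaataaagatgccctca
The motifs were the interferon-stimulated response element (TTTCNNTTTC), the AP-1 site (TGANTCA) and the NF-κB consensus with its usual degenerate letters, each searched on both strands, and matches to different motifs did not overlap. Of the 9 genes 8, all but Cxcl16, were matched in the RefSeq promoter table used here, in 10 windows. The NF-κB consensus matched in 3 of the 8 genes, Cxcl2, Cxcl10 and Ccrl2, in 1 window of each. It matched in 3.90% of the 32851 windows of that length in the table. That share is per window and not per gene, and Ccrl2 had more than 1 window. In Cxcl2 the match was a run of 11 bases at positions -97 to -87 before the start site, which reads as a match on either strand. Cxcl10 held NF-κB matches at -159 and -103, 1 interferon element at -213 and 1 AP-1 match at -74. The interferon element occurred in 2.98% and the AP-1 site in 6.75% of all windows, and among the 8 genes only Cxcl10 held either. No motif of the 3 was found in the windows of Ccr2 and Cx3cr1. A match is a string of letters and not evidence that a factor was bound.

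Cx3cr1 was 3.23-fold lower and Ccr2 2.19-fold higher in low sodium on their brightest probe sets, in all 3 pairs of arrays. Cxcl2 was higher, and Cxcl10 and Cxcl16 were lower, in all 3 pairs as well. Ccr1, Cxcr4 and Ccrl2 gave differences that changed in sign or in size between replicate 3 and the other replicates, and Cmklr1 was dim.

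Cx3cr1, the receptor of the membrane-bound chemokine fractalkine, had the largest difference below 0 among the 9 genes. On its brighter probe set the log2 intensity was 10.54, 10.25 and 10.34 on the low-sodium arrays, against 11.91, 11.97 and 12.32 on the normal-sodium arrays of replicates 1, 2 and 3. Every low-sodium array lay below every normal-sodium array. The mean was 10.37 ± 0.15 in low sodium and 12.07 ± 0.22 in normal sodium (SD, n = 3 each), a log2 difference of -1.69 ± 0.23 (SE), or 3.23-fold lower. Each SE given for the 9 genes is that of the limma fit with medium as its only term, and is not computed from the SDs of that gene alone. The second probe set gave 9.52, 9.25 and 9.21 in low sodium, against 10.81, 10.88 and 10.77 in normal sodium. It too separated the media, by a log2 difference of -1.50 ± 0.21. Between arrays of the same number the brighter probe set differed by -1.37, -1.72 and -1.98, and the second by -1.29, -1.64 and -1.56. All of these 6 pairs had the lower signal in low sodium.

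Ccr2, the receptor of Ccl2 on inflammatory monocytes, stood on the other side. Its brightest probe set had log2 intensities of 8.19, 7.84 and 7.74 in low sodium, against 6.60, 6.64 and 7.13 in normal sodium. The groups did not overlap, and the difference was 1.13 ± 0.26 (SE, n = 3 against 3), or 2.19-fold higher. By replicate number it was 1.59, 1.20 and 0.61. The other 3 Ccr2 probe sets differed by 1.08 ± 0.25, 0.46 ± 0.24 and 1.15 ± 0.47, all in the same direction at each replicate number. The last of these had log2 intensities of 7.57, 6.97 and 6.23 in low sodium, against 6.44, 5.28 and 5.60 in normal sodium. It was the 1 Ccr2 probe set whose groups overlapped.

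Ccr1, a receptor shared by several CC chemokines of the macrophage, differed between the media in a way that depended on the replicate number. Its brighter probe set had log2 intensities of 8.80, 8.81 and 5.26 in low sodium, against 6.61, 6.60 and 6.26 in normal sodium. The low-sodium arrays of replicates 1 and 2 lay 2.19 and 2.21 log2 units above their normal-sodium counterparts, and that of replicate 3 lay 1.99-fold lower. The mean difference of 1.13 ± 1.01 (SE, n = 3 against 3) describes none of the 3 pairs. It was 2.32 without the low-sodium array of replicate 3, and 0.55 and 0.54 without that of replicate 1 or 2. The other Ccr1 probe set was dim, with a mean intensity under the median of probe set means. Its log2 intensities were 4.61, 4.83 and 0.77 in low sodium, against 1.55, 2.76 and 5.14 in normal sodium. Its differences of 3.06, 2.07 and -4.37 depend on the constant of 1 added before taking logs, and became 1.14, 1.00 and -1.59 with 16 added. The signs of its pairs were those of the brighter probe set, whereas the order of the arrays was not: the normal-sodium array of replicate 3 was the highest of the 6 here and the lowest of its medium on the brighter one.

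Cxcr4, the Cxcl12 receptor, was high on 1 array. Its probe set gave 7.58, 7.77 and 11.04 in low sodium, against 7.11, 7.04 and 7.94 in normal sodium. The low-sodium array of each replicate number was the higher of its pair, by 0.47, 0.73 and 3.10, which is 1.39-fold, 1.66-fold and 8.59-fold. The groups overlapped, because the normal-sodium array of replicate 3 lay above the low-sodium arrays of replicates 1 and 2. The mean difference of 1.43 ± 0.98 (SE, n = 3 against 3) became 0.31 without the low-sodium array of replicate 3.

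**Figure D1:**
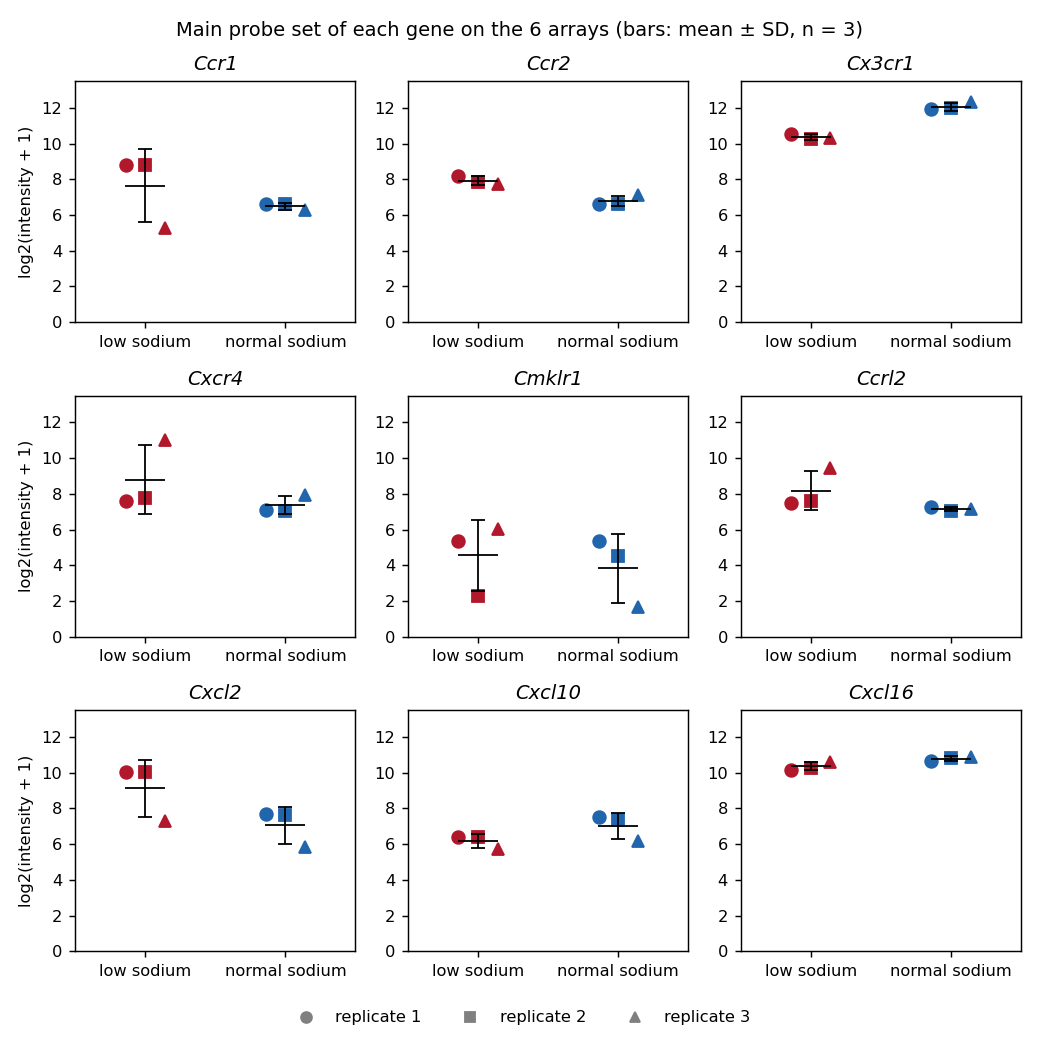
Log2(intensity + 1) of the brightest probe set of each of the 9 genes (vertical axis) on the 3 low-sodium arrays (red, left) and the 3 normal-sodium arrays (blue, right), with marker shape for the replicate number and bars for the mean ± SD. Cx3cr1 lies at 10.25 to 10.54 in low sodium and 11.91 to 12.32 in normal sodium, whereas the low-sodium array of replicate 3 stands apart in Ccr1 (5.26), Cxcr4 (11.04) and Ccrl2 (9.44).

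The chemerin receptors form a functional pair: Cmklr1 signals on binding chemerin, and Ccrl2 binds chemerin without signalling through G proteins and presents it to Cmklr1. Ccrl2 had log2 intensities of 7.49, 7.62 and 9.44 in low sodium, against 7.24, 7.05 and 7.17 in normal sodium. All low-sodium arrays lay above all normal-sodium arrays, by 0.25, 0.57 and 2.27 at replicates 1, 2 and 3. The mean difference was 1.03 ± 0.56 (SE, n = 3 against 3), and 0.40 without the low-sodium array of replicate 3. Cmklr1 was dim on both of its probe sets. The brighter gave 5.36, 2.31 and 6.03 in low sodium, against 5.33, 4.49 and 1.67 in normal sodium, with no order between the media. The dimmer gave 3.17, 2.07 and 2.56 in low sodium, against 1.52, 1.77 and 1.85 in normal sodium, and its difference of 0.89 shrank to 0.22 with 16 added before the logs. At this signal no level of Cmklr1 is read from either medium.

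Cxcl2, a neutrophil attractant that macrophages release on inflammatory stimulation, had the largest difference above 0 among the brightest probe sets. Its log2 intensities were 10.06, 10.05 and 7.30 in low sodium, against 7.70, 7.63 and 5.86 in normal sodium. The low-sodium array was higher at each replicate number, by 2.36, 2.42 and 1.44, which is 5.13-fold, 5.36-fold and 2.71-fold. The groups as a whole overlapped, because both replicate 3 arrays were low for their medium. The mean difference was 2.07 ± 0.93 (SE, n = 3 against 3), with a range of 1.47 to 2.99 when single arrays were left out.

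Cxcl10, an interferon-induced attractant of T cells, was lower in low sodium at each replicate number. It had log2 intensities of 6.42, 6.41 and 5.72 in low sodium, against 7.53, 7.36 and 6.18 in normal sodium. The differences were -1.10, -0.95 and -0.46, and the groups overlapped because the normal-sodium array of replicate 3 lay below both low-sodium arrays of replicates 1 and 2. The mean difference was -0.84 ± 0.44 (SE, n = 3 against 3).

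Cxcl16, a membrane-anchored chemokine that also acts as a scavenger receptor for oxidised lipoprotein, differed less. Its brighter probe set gave 10.18, 10.27 and 10.61 in low sodium, against 10.63, 10.83 and 10.89 in normal sodium. The groups were separate by a narrow margin, and the pairs differed by -0.45, -0.56 and -0.28. The second probe set gave 9.65, 9.72 and 10.21 in low sodium, against 9.91, 10.12 and 10.49 in normal sodium. It differed by -0.27, -0.41 and -0.28 at the 3 replicate numbers, with overlapping groups.

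**Figure D2:**
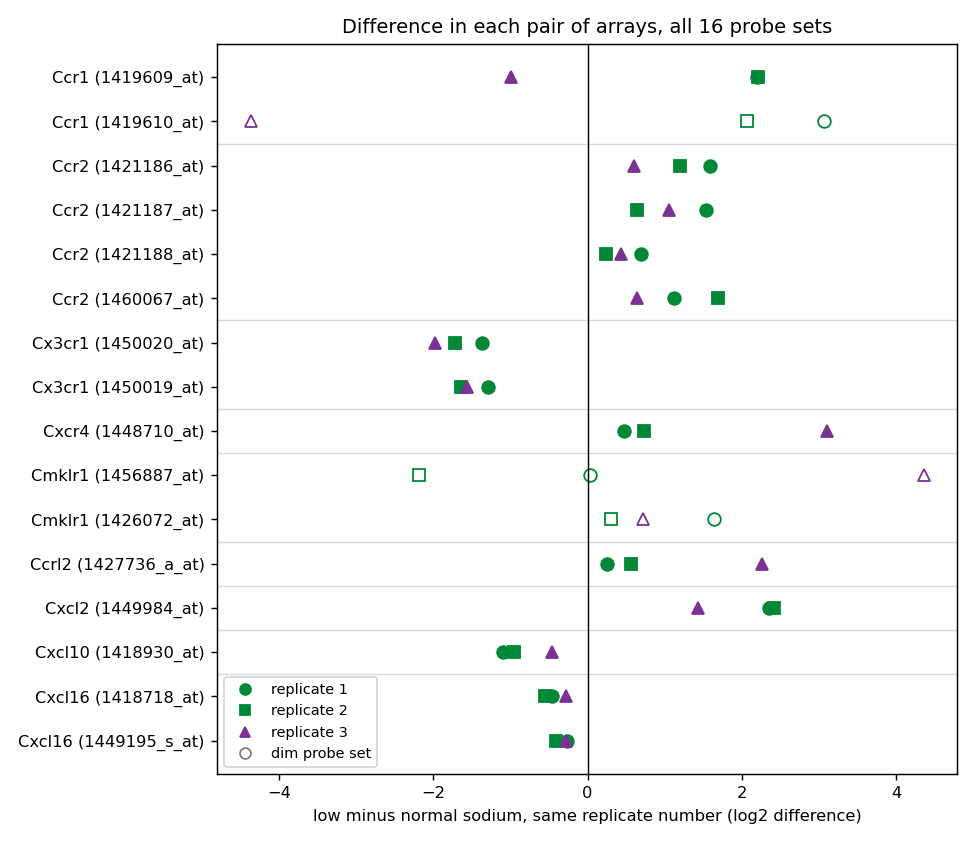
Log2 difference, low minus normal sodium, between arrays of the same replicate number (horizontal axis) for each of the 16 probe sets (rows), with open markers for dim probe sets. All 3 pairs lie right of 0 for 8 probe sets and left of 0 for 5, and the pairs disagree for both Ccr1 probe sets and 1 Cmklr1 probe set.

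Counted over probe sets, 8 of the 16 were higher and 5 lower in low sodium at all 3 replicate numbers, where 17.4% and 18.7% of all probe sets were. The groups did not overlap for 5 probe sets with low sodium above and 3 with low sodium below, where 6.97% and 7.88% of all probe sets were separate in these directions. Of the 16, 13 reached the median of probe set means and 3 were dim. The median difference of the 9 brightest probe sets was 1.03, and that over all genes was -0.01. Because the genes were proposed on these differences, nothing is read from these counts, and no calls of the 9 genes are given. Over all 45037 probe sets the limma fit without further terms passed 0% at an adjusted p of 0.05 (Benjamini-Hochberg), with 6.37% at an unadjusted p under 0.05. A limma fit with a term for replicate 3 passed 4.09% with a trended prior and 0% with a constant prior.

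The arrays of replicate 3 were also compared with the others without regard to sodium. In a limma comparison of replicate 3 with replicates 1 and 2, adjusted for medium, 0 of the 16 probe sets and 0% of all passed an adjusted p of 0.05. At an unadjusted p under 0.05 stood 24.4% of all. With a trended prior 3 of the 16 passed, namely Cxcl2, Cxcr4 and the second Cxcl16 probe set, beside 15.1% of all probe sets, which is a similar share.

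The shift of replicate 3 within each medium was then set side by side. Cxcl2 was lower in replicate 3 in both media, by a log2 difference of -2.76 in low sodium and -1.81 in normal sodium, and Cxcl10 likewise by -0.70 and -1.26. Cx3cr1 and Ccr2 differed by -0.06 and -0.27 in low sodium and by 0.38 and 0.51 in normal sodium. For Ccr1, Cxcr4 and Ccrl2, as for Cxcl2, the shift was larger in size within low sodium (-3.55, 3.37 and 1.88) than within normal sodium (-0.35, 0.86 and 0.02). With 1 array per medium in replicate 3, a response that differed between cultures cannot be told apart from variation of that 1 low-sodium array.

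**Figure D3:**
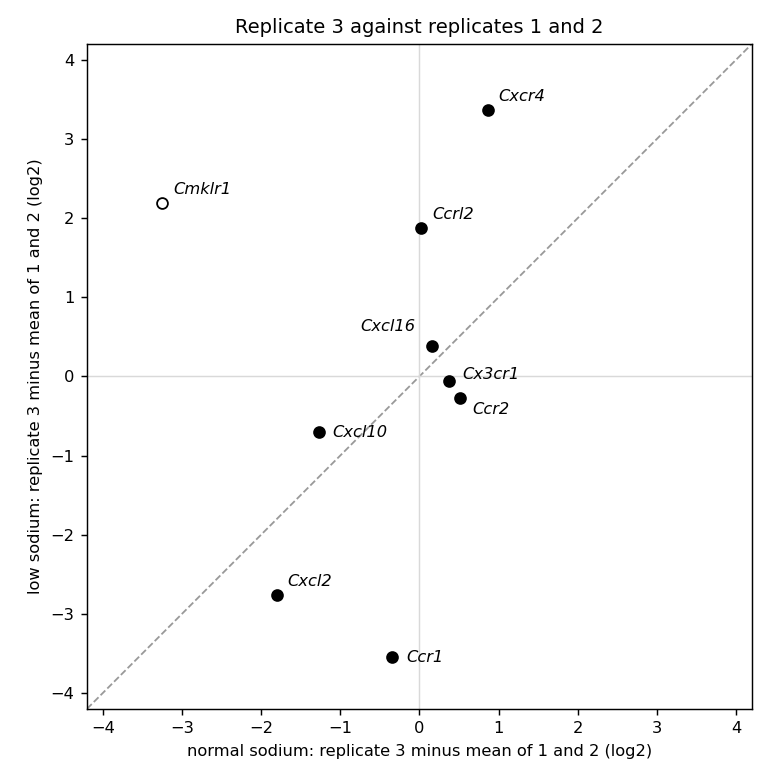
Log2 difference of replicate 3 from the mean of replicates 1 and 2 in low sodium (vertical axis) and in normal sodium (horizontal axis) for the brightest probe set of the 9 genes, with an open marker for the dim Cmklr1 and a dashed line of equal shift. Cxcl2 (-2.76 and -1.81) and Cxcl10 (-0.70 and -1.26) lie below 0 on both axes, and Ccr1 (-3.55 and -0.35), Cxcr4 (3.37 and 0.86) and Ccrl2 (1.88 and 0.02) lie farther from the line than Cxcl2.

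The genes with the most similar profile to Cx3cr1 over the 6 arrays, by Pearson correlation among the 10903 genes of at least median intensity, were Pros1 (r = 0.999), Cks1b (r = 0.995) and Spc24 (r = 0.993). Their log2 differences were -0.69, -0.66 and -0.69, smaller than that of Cx3cr1. For Cxcl2 they were Abhd5 (r = 0.999), Slfn4 (r = 0.998) and Kat2b (r = 0.997), with differences of 0.59, 0.65 and 0.19. These correlations rest on 6 points that share the same arrays and are given as a description.

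The rest of the chemokine system was read from 5 lists holding 76 measured genes, each by its brightest probe set. In the limma fit without further terms 0 of the 76 and 0% of all genes passed, with 7 of the 76 and 6.44% of all at an unadjusted p under 0.05. In the fit with a term for replicate 3 and a trended prior 9 of the 76 were higher and 4 lower in low sodium, where 3.09% and 2.93% of all genes were. With the same term and a constant prior 0 of the 76 passed, so these calls depend on the prior. The lists and fits were chosen with earlier results of these data known, so the counts and adjusted p are a description only. The values and adjusted p that follow are from the fit with that term and the trended prior. So are the SEs, which cannot be compared with those of the 9 genes, taken from the fit without that term. For Ccl3 the SE was 0.08 with the term and that prior, and 0.52 in the fit without further terms.

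Among 13 ligands listed for the receptors described, 5 were higher and 0 lower, and the median difference was 0.59. Ccl3, Ccl6 and Ccl9, ligands of Ccr1 in the mouse, differed by 1.54 ± 0.08, 2.00 ± 0.18 and 0.59 ± 0.07 (SE, limma adjusted p = 0.000526, 0.00188 and 0.00601). The low-sodium array was higher at all 3 replicate numbers for each of them, also at replicate 3, where Ccr1 itself was lower. Ccl4 differed by 1.24 ± 0.10 (limma adjusted p = 0.00138). Ccl2, the main ligand of Ccr2, had a log2 intensity of 13.32, 13.31 and 8.94 in low sodium, against 9.38, 9.39 and 8.39 in normal sodium. Its difference was 3.94 and 3.92 at replicates 1 and 2 and 0.55 at replicate 3 (limma adjusted p = 0.0381 over all arrays). The ligands of Cx3cr1, Cxcr4 and Cmklr1 did not pass: Cx3cl1 differed by -0.09 ± 0.28, Cxcl12 by 0.76 ± 0.94 and Rarres2, the chemerin gene, by -1.16 ± 0.60. Cxcl12 and Rarres2 were dim.

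Of 20 other chemokine and chemoattractant receptors 1 was higher and 0 lower, and only 6 of the 20 reached the median intensity. The 1 was C3ar1, a receptor for the complement fragment C3a, at 1.37 ± 0.16 (limma adjusted p = 0.00562). C5ar1, a receptor for C5a, differed by -0.25 ± 0.14 and the dim Ccr9 by -2.25 ± 0.93 without passing. None of 11 other CXC ligands passed. Pf4, platelet factor 4, came closest at 0.95 ± 0.22 (limma adjusted p = 0.0589), with differences of 1.34, 1.39 and 0.14 at the 3 replicate numbers. Cxcl13 and Cxcl14 differed by -0.64 ± 0.29 and 0.62 ± 0.37. At the 3 replicate numbers Cxcl13 differed by -0.48, -0.55 and -0.90, and Cxcl14 by -0.06, -0.15 and 2.05.

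Of 24 signalling genes downstream of chemokine receptors 1 was higher and 4 were lower, with a median of -0.01. Gnai3, an inhibitory G protein subunit, differed by 0.33 ± 0.07, close to the threshold (limma adjusted p = 0.0447). Rac2, a GTPase of leukocyte migration, differed by -0.35 ± 0.06, and Nup85, a nucleoporin whose human protein binds CCR2, by -0.56 ± 0.10. The receptor kinase gene Grk6 and the PI3-kinase gene Pik3cd differed by -0.40 ± 0.09 and -0.54 ± 0.12, also close to the threshold (limma adjusted p = 0.0493 and 0.0454). Of 8 genes of chemokine shedding and cleavage 2 were higher and 0 lower. Adam17, a protease that cleaves membrane proteins from the cell surface, differed by 0.55 ± 0.11 (limma adjusted p = 0.0405). The gelatinase gene Mmp9 differed by 1.05 ± 0.19 (limma adjusted p = 0.0245). Rhbdf2, which helps Adam17 to mature, differed by 0.41 ± 0.10 without passing (limma adjusted p = 0.0708).

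**Figure D4:**
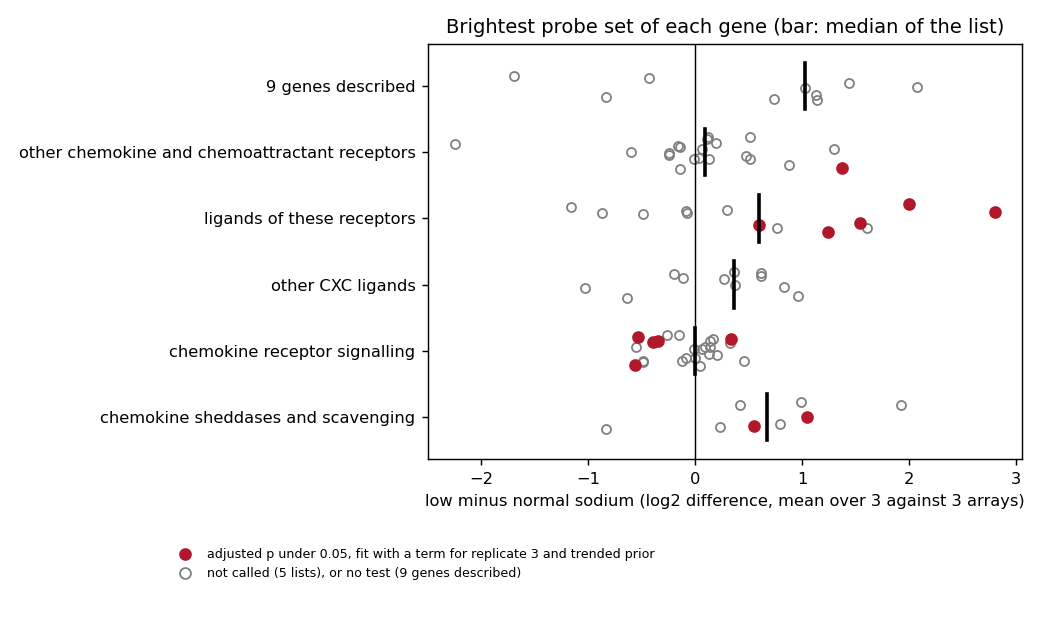
Log2 difference, low minus normal sodium, of the brightest probe set of each gene (horizontal axis) for the 9 genes described and 5 lists of related genes (rows). Filled points of the 5 lists passed an adjusted p of 0.05 in the limma fit with a term for replicate 3 and a trended prior, the 9 genes are drawn open without a test, and bars mark medians, which are 1.03 for the 9 genes, 0.59 for the ligands and -0.01 for signalling.

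Markers of macrophages and osteoclasts were read beside those of other cell types. Reaching the median intensity is a level of signal and not a call that a cell type was present. All 10 macrophage markers and 8 of 10 osteoclast markers reached the median intensity, against 2 of 6 neutrophil, 1 of 5 lymphocyte and 3 of 7 fibroblast and osteoblast markers. The summed intensity of 10 osteoclast markers was 7226 to 8515 on low-sodium arrays and 2439 to 3107 on normal-sodium arrays, and that of the macrophage markers was 91303 to 116752 and 82468 to 97650. Atp6v0d2, a proton pump subunit of osteoclasts, gave 6156 of the 8515 on the low-sodium array of replicate 3. Without it, an alternative chosen after seeing the data, the osteoclast sums overlapped, at 5741, 5415 and 2359 in low sodium and 2778, 2668 and 2287 in normal sodium. Mmp9 is in this list and in that of shedding and cleavage. The sums of neutrophil markers (282 to 592 in low sodium, 231 to 377 in normal sodium), lymphocyte markers (111 to 249 and 121 to 317) and fibroblast and osteoblast markers (268 to 545 and 319 to 484) overlapped between the media. In the fit with a term for replicate 3 and a trended prior 5 of the 10 osteoclast markers passed as higher and 0 as lower. Of the 10 macrophage markers 2 passed as higher and 0 as lower. In this fit 3.09% of all genes passed as higher and 2.93% as lower. In the limma fit without further terms 0 markers of either list passed. With the term for replicate 3 and a constant prior 0% of all probe sets passed, so the marker calls depend on the prior. They too are a description only. By sign alone, 5 osteoclast markers were higher and 2 lower in low sodium at all 3 replicate numbers, and 4 and 0 macrophage markers. Of all probe sets 17.4% were higher and 18.7% lower in this way. Their part in the chemokine differences was not tested, and more cells of a type cannot be told apart from more RNA per cell on these arrays.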

How the data were processed

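Biotin-labelled RNA from 6 cultures was hybridised to Affymetrix mouse arrays, 3 per medium. The deposited values are linear intensities, 1 per probe set and array. Partek is named without a version in the submitters' processing notes, with a summarisation not given in the sources used here. Each array had the same mean intensity, 500.003, between its percentiles 2 and 98, as after global scaling. Median intensities were 47.8 to 74.5, and the number of arrays limits the precision.

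The log2 of intensity plus 1 was analysed. The 64 control probe sets were left out, and limma 3.58.1 in R 4.3.3 (lmFit, eBayes, constant prior, two-sided, Benjamini-Hochberg over 45037 probe sets) compared low with normal sodium. Of these, 34945 probe sets carried 1 gene in the platform annotation, 932 several and 9160 none, and 34741 of the first were matched by Entrez identifier to RefSeq GRCm38.p6 for symbols. Each of 18193 genes was represented by its brightest probe set. Dim means a mean intensity under the median of probe set means, 63.3.

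Alternatives were a replicate block, a term for replicate 3, a trended prior, replicates 1 and 2 alone, 16 added, quantile normalisation, median centring, a filter on dim probe sets, other probe sets of a gene and leaving out each array. Deviations from the group means correlated at 0.33, 0.33 and 0.51 in same-numbered arrays over 22519 probe sets, which met the rule set for pairing. Arrays numbered 1 and 2 correlated as much across numbers (0.34 and 0.32), so the numbers tell replicate 3 from the others and do not tell 1 from 2. Scripts were tested on data simulated from the fit with a term for replicate 3. Such a run checks the code and cannot judge the choice of that fit.

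The rule for named genes took all 9 genes, the 3 genes of each list with the smallest p in the fit with a term for replicate 3 and a trended prior, any list genes past its threshold, and the 3 most similar profiles. The genes, lists and fits were chosen with earlier results of these data known. Markers were read as lists only. The motifs were chosen after the data were seen.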

Additional observations from a re-analysis of the deposited data

How the results depend on the processing

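The limma comparison of low with normal sodium called 0 probe sets, with 2868 at an unadjusted p under 0.05. It called 1840 with a term for replicate 3 and a trended prior, 3714 with that prior in replicates 1 and 2 only, 33 with the prior but no such term, 1 with 16 added and 2 among bright probe sets only. Of the 76 related genes it called 0, against 13, 17 and 1 in the first 3 of these settings. With a term for replicate 3 and a constant prior it called 0 probe sets and 0 of the 76. The comparison of replicate 3 with replicates 1 and 2 called 0 probe sets, against 6796 with a trended prior, 1223 with 16 added and 6162 among bright probe sets only. The replicate block called 0 probe sets and 0 related genes, and changed no call. Leaving out single arrays gave 0 to 0 in each of the 3 comparisons. For 8 of the 9 genes the mean difference kept its sign in all alternatives run. Several of these could not change a sign, because the media are balanced over the replicate numbers. The replicate block, the term for replicate 3, the trended prior over all arrays and the filter on dim probe sets leave the mean difference as it was. No alternative took replicate 3 alone. Ccr1 counts among the 8 although both of its probe sets were lower in low sodium in the replicate 3 pair. For Cmklr1 the mean difference turned to -1.08 in replicates 1 and 2 alone and to -0.35 without the normal-sodium array of replicate 3. The cause was not tested. Without the low-sodium array of replicate 3 the difference was 2.32 for Ccr1, 0.31 for Cxcr4 and 0.40 for Ccrl2, and that of Cxcl10 was -1.26 without the normal-sodium array of replicate 3. Signal close to background limits Cmklr1 and the second Ccr1 probe set. Signal near the median of probe set means limits the replicate 3 pair of the brighter Ccr1 probe set.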
